A study of Mus musculus with 12 samples.

Results

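Of 12 arrays in the series, the 6 with Zfx labelled wt form the experiment described here, 3 infected with a Myc virus and 3 with a GFP virus, chosen by their sample titles. They started from c-Kit+ bone marrow cells of mice of genotype Zfx wt/y CreER. These mice have an intact Zfx, which encodes a zinc finger transcription factor, and a Cre recombinase that tamoxifen switches on. All these mice, those of the GFP group included, had received tamoxifen by gavage, 5 mg a day for 3 days. The virus of the first group brought in Myc together with GFP, and the control virus GFP alone. After 48 hours GFP+ myeloid progenitors were sorted, then grown for another 4 days in 20% serum and the cytokines SCF, IL-6 and IL-3, at 10 ng/mL of each, before RNA was taken. The other 6 arrays hold the same 2 viruses in cells of genotype Zfx fl/y CreER, labelled Zfx ko. The promoter that drives CreER, the age of the mice, the species of the viral Myc and whether arrays of a group came from separate animals are not given here.

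Myc is a transcription factor that binds DNA as a pair with Max, most strongly at the E-box, CACGTG. It is known for raising genes that build ribosomes, import nutrients and make nucleotides, and for driving blood progenitors to divide in place of maturing. Proteins of the Mxd family and Mnt compete for Max and oppose it. In bone marrow, neutrophils, mast cells and monocytes arise from shared progenitors and take up granule proteins, adhesion molecules and chemokine receptors in steps as they mature.

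The deposited values are intensities on a linear scale, and an intensity below is the value of 1 probe set on 1 array. Differences are log2 of Myc minus GFP, or folds computed from it, with limma's Benjamini-Hochberg adjusted p over 19938 genes and a threshold of 0.05. The median intensity of the 6 arrays lay between 127 and 135.5. The cells were myeloid by their RNA. Elane, the neutrophil elastase gene, lay between 14948 and 17316 on the 6 arrays, and Csf2rb, the shared beta chain of the IL-3 receptor, between 5797 and 7384. Summed over the list, 11 B lymphoid markers reached 1197 to 1329 with Myc and 1342 to 1422 with GFP, and 15 T and NK markers 3888 to 5475 and 5094 to 7470. Kit, the gene of the c-Kit marker of the starting cells, read 1281, 691 and 1054 with Myc and 1275, 890 and 1582 with GFP. The 2 groups overlapped (adjusted p = 0.721). In such bulk RNA, fewer cells of a type and less RNA per cell cannot be told apart. The authors' normalization also brings all arrays to nearly the same distribution, so a change of total RNA per cell would not show.

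With Myc, 1231 genes were higher and 620 lower at the threshold, 1851 of 19938 in all (9.28%: 6.17% higher and 3.11% lower). Most changes were small. The median fold of the called genes was 1.38 for rises and 1.43 for falls, and 324 rises and 256 falls were at least 1.5-fold, while 42 rises and 78 falls were at least 2-fold. So rises were more numerous, and falls made up more of the large changes, with 14 falls and 6 rises of at least 3-fold. All 1851 called genes changed in the same direction in all 3 same-numbered pairs, and in 1850 the Myc and GFP arrays did not overlap. Over all genes, 15.1% had all Myc arrays above all GFP arrays and 9.44% had them below. Called genes were brightly expressed, with a median intensity of 934 for rises and 899 for falls against 161 for all genes. Treating the replicate number as a block gave 2438 higher and 1644 lower genes (12.2% and 8.25%), and the 1851 genes were all among them. Called genes numbered 838 with GFP wt 3 left out, 859 with Myc wt 3, 1172 with Myc wt 1 and 1209 with GFP wt 1 left out. Leaving out both arrays of a number left 430 without pair 1, 1174 without pair 2 and 90 without pair 3, and 723 of the 1851 kept their call without each of the 6 arrays in turn.

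**Figure D1:**
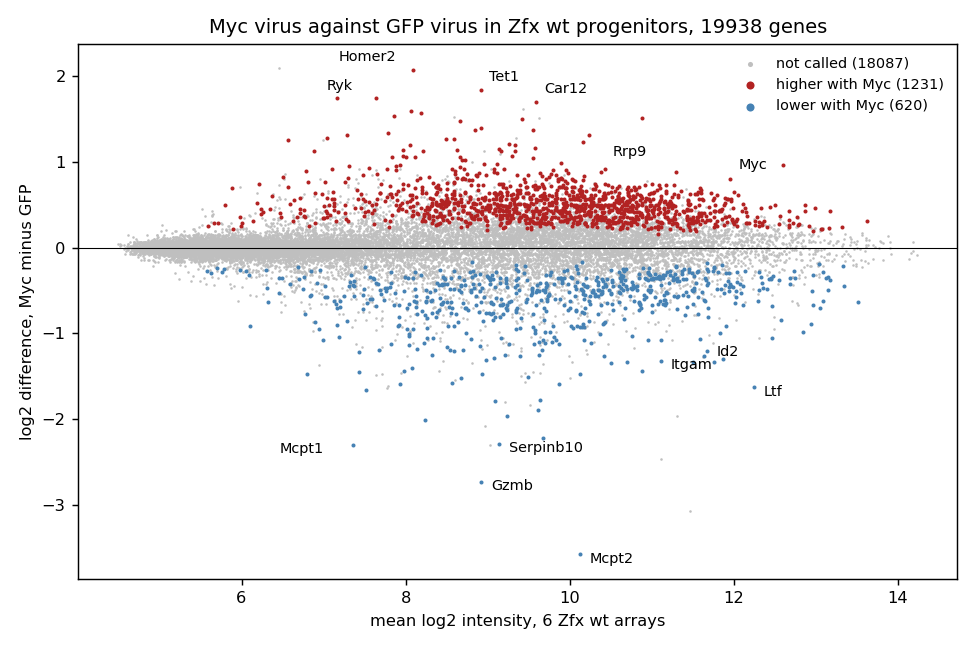
Each point is 1 gene, with the mean log2 intensity over the 6 wt arrays on the horizontal axis and the log2 difference, Myc minus GFP, on the vertical axis. The 1231 genes called higher have a median of 0.47, while the falls of Mcpt2 (-3.58), Gzmb (-2.73) and Mcpt1 (-2.30) reach farther from 0 than the rise of Homer2 (2.07).

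The Myc probe set, which was also bright in cells with the GFP virus, read 5356, 4842 and 5493 with Myc and 3146, 2787 and 3108 with GFP, a rise of 1.74-fold (95% interval 1.55 to 1.94, adjusted p = 7.24e-04). The species of the viral Myc and the part of the transcript that these probes cover are not known here, so this fold may understate the added Myc. No array overlapped, and the highest adjusted p without any 1 array was 0.00534. Its partner Max read 3098, 2908 and 3094 with Myc and 2740, 2554 and 2636 with GFP and rose 1.15-fold (adjusted p = 0.039), though it lost its call without some single arrays (highest adjusted p 0.148). Mga, a large protein that also binds Max, rose 1.25-fold from 1243, 1202 and 1220 to 1644, 1468 and 1482 (adjusted p = 0.0232; highest 0.0862 without 1 array). Among the antagonists, Mxd3 fell 1.54-fold, from 367, 281 and 380 to 207, 225 and 231 (adjusted p = 0.0216; highest 0.0946). Mxd1, an antagonist that accompanies myeloid maturation, read 1090, 2063 and 1810 with Myc and 2229, 3364 and 2457 with GFP, with a log2 difference of -0.73 (adjusted p = 0.0724; 0.00564 with the block). Mnt differed by 0.15 (adjusted p = 0.197). In all, 3 of 13 network genes were higher and 1 lower, and 2 were lower with the block. Of the 3 higher, Myc alone kept its call when any 1 of the wt arrays except Myc wt 2 was left out. Zfx read 1019, 991 and 966 with Myc and 862, 987 and 989 with GFP, and the groups overlapped (adjusted p = 0.763). In the cells labelled ko its means were 1048 with Myc and 1021 with GFP, against 992 and 946 in wt. This probe set therefore does not show the loss of Zfx, which rests here on the labels.

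The largest rises were mostly in genes outside the growth lists, some better known from nerve cells or epithelia. Homer2, a synaptic scaffold gene, read 309, 421 and 1075 with Myc and 126, 117 and 127 with GFP. GFP arrays lay together, while the Myc arrays were spread, with array 3 highest. Tet1, which oxidises methylated cytosine, read 702, 999 and 989 with Myc and 193, 382 and 204 with GFP, and its 3 probe sets differed by 1.65, 1.75 and 1.84 on the log2 scale. Ryk, a Wnt receptor gene, read 213, 390 and 512 with Myc and 97.6, 133 and 87.6 with GFP. Car12, a membrane carbonic anhydrase, read 1329, 1196 and 1659 with Myc and 399, 440 and 435 with GFP and rose 3.26-fold (95% interval 2.68 to 3.95, adjusted p = 6.87e-04). That was among the most even of the large rises, with an adjusted p of at most 0.0048 without any 1 array. Spire1, an actin nucleator, read 454, 441 and 613 with Myc and 162, 194 and 150 with GFP, a rise of 2.96-fold (adjusted p = 0.0012; highest 0.00988). Beyond the first 10 ranks, Gja1, the connexin 43 gene, rose 2.76-fold, Grb10, an adaptor that restrains insulin signalling, 2.63-fold, Podxl 2.58-fold and Ccdc116 2.58-fold. Adgrg7, an adhesion G protein-coupled receptor, rose 2.47-fold, from 823, 754 and 714 to 1538, 1903 and 2289. Btla, an inhibitory receptor of lymphocytes, rose 2.42-fold to 196, 196 and 219, and Stc2, a secreted glycoprotein gene, 2.4-fold. Kcne3, Prtg and Echdc2 rose between 2.4-fold and 2.54-fold, and all 3 lost their call without some 1 array, as did Slc6a15, Reep6, Grb10 and Podxl.

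Most genes that build ribosomes rose. Of 129 measured genes in 4 lists, 95 were higher (73.6%, against 6.17% of all genes) and 0 lower. In 117 of them all Myc arrays lay above all GFP arrays, against 15.1% of all genes. The median log2 difference of the 129 was 0.53, or 1.44-fold, against 0.00 for all genes. It was 0.53, 0.40 and 0.61 in pairs 1, 2 and 3. All 13 proteins of the small nucleolar ribonucleoproteins, which modify and process ribosomal RNA, were higher (median 0.58). Nop58, a core protein of the box C/D particles, read 2493, 2724 and 2543 with Myc and 1558, 1835 and 1604 with GFP, a rise of 1.56-fold (adjusted p = 0.0143; highest 0.0619 without 1 array). The H/ACA assembly factors Naf1 and Shq1 rose 1.64-fold and 1.62-fold, and Shq1 read 763, 733 and 726 with Myc and 483, 467 and 422 with GFP (adjusted p = 0.00136). Even Snu13, the least changed, rose 1.34-fold, and its lowest Myc array, 8398, lay above its highest GFP array, 6642. The count of 13 dropped to 8 without GFP wt 3.

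The small subunit processome, the particle that cuts and folds 18S ribosomal RNA, had 38 of 50 genes higher and 0 lower (median 0.52; 21 without Myc wt 3 and 21 without GFP wt 3). Rrp9, its U3 particle protein, read 1705, 1788 and 2195 with Myc and 966, 985 and 1040 with GFP and rose 1.89-fold (95% interval 1.57 to 2.27, adjusted p = 0.00257). Nat10, an RNA acetyltransferase, rose 1.67-fold and Aatf 1.63-fold. The large subunit assembly factors had 38 of 53 higher and 0 lower (median 0.53; 24 and 21 without the same arrays). Nle1 rose 1.67-fold, from 402, 469 and 458 to 726, 689 and 802 (adjusted p = 0.00203), and Gnl3, the nucleostemin gene, 1.65-fold, from 1871, 2009 and 1901 to 3121, 3162 and 3280. The abundant nucleolar proteins changed less, and did not pass the test without the block. Npm1 read 4756, 4693 and 5145 with Myc and 3912, 4217 and 4164 with GFP (adjusted p = 0.0558; 0.0168 with the block) and Ncl 7567, 8233 and 7886 with Myc and 5657, 6804 and 6256 with GFP (adjusted p = 0.136; 0.0132). RNA polymerase I and its factors had 6 of 13 higher and 0 lower (median 0.37). Polr1b, its second largest subunit, read 3129, 2550 and 3261 with Myc and 1772, 1790 and 1784 with GFP, Polr1a rose 1.53-fold, and Ubtf, which opens ribosomal DNA, rose 1.3-fold (highest adjusted p 0.0552 without 1 array), while the termination factor gene Ttf1 differed by -0.11 (adjusted p = 0.83).

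**Figure D2:**
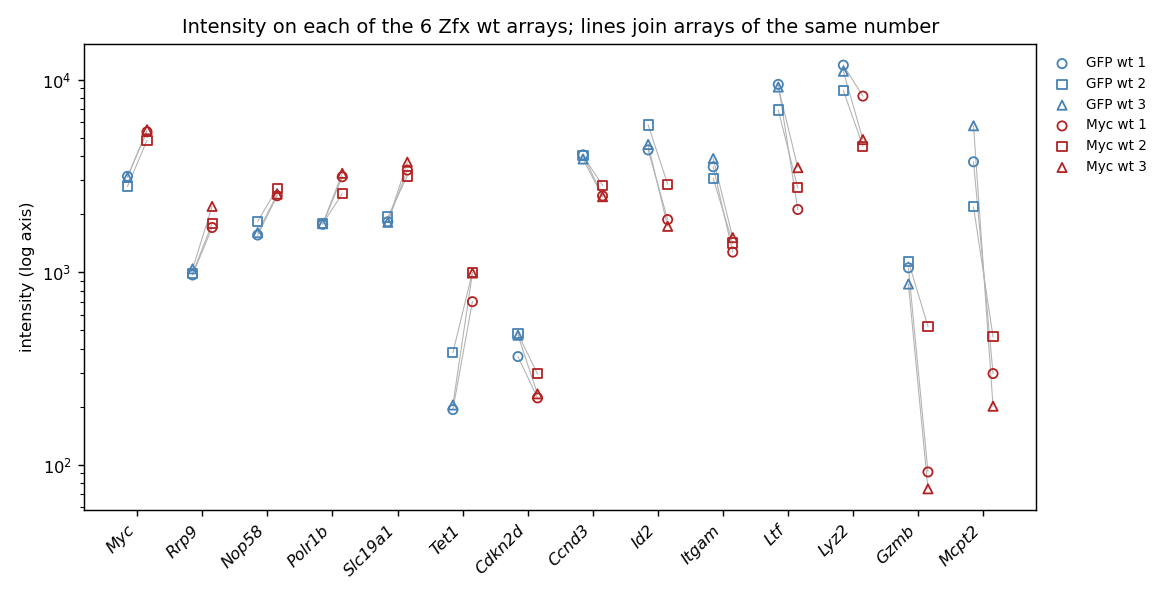
Intensity on a log axis for 14 genes on each of the 6 wt arrays, GFP in blue and Myc in red, with marker shapes for array numbers and grey lines between arrays of the same number. Every line of Myc, Rrp9, Nop58, Polr1b, Slc19a1 and Tet1 goes up and every line of the other genes goes down; Gzmb is at 523 on Myc wt 2 but at 91.5 and 74.8 on the other 2 Myc arrays.

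The E-box CACGTG, which reads the same on both strands, was looked for in the RefSeq promoter windows of GRCm38.p6, from 250 bases before to 50 after each annotated start. Of 19116 windows of tested genes, 8.26% held it, and across the whole set of 32851 windows 7.15% did. The share was 14.9% of 1179 windows of genes higher with Myc, 9.56% of 659 windows of genes lower with Myc and 7.76% of 17278 windows of genes not called. Among measured ribosome biogenesis genes 26 of 121 windows held it (21.5%), and among the called ones 20 of 93, the same share. Measured mitochondrial ribosome genes had it in 7 of 74 windows (9.46%), and measured neutrophil maturation genes in 1 of 24 (4.17%). These promoters also differ in base composition, with a median of 22, 17 and 14 CG dinucleotides in the higher, lower and uncalled windows. ACCGGT, a palindrome of the same letters with CG at its centre, was in 3.73%, 3.03% and 2.56% of them. Measured ribosome biogenesis windows had a median of 21 CG dinucleotides and ACCGGT in 4.13%. Measured neutrophil windows had a median of 3 and ACCGGT in 0%. Within the genes called higher, those with and without the E-box had like medians, 0.50 and 0.46. Windows of rises of at least 1.5-fold held the E-box in 17.3% and those of smaller rises in 14%. For ACCGGT these shares were 5.56% and 3.04%. A match is a description of these letters, not evidence of binding. The 3 ribosome biogenesis genes shown first have the largest rises among those whose window holds CACGTG, in capitals. They are Tsr1 (chr11:74897830-74898129, plus strand), Nle1 (chr11:82908346-82908645, minus strand) and Aatf (chr11:84513452-84513751, minus strand). The next 3 belong to the largest named falls with a window in the table, Gzmb (chr14:56262285-56262584, minus strand), Mcpt1 (chr14:56017714-56018013, plus strand) and Serpinb10 (chr1:107528753-107529052, plus strand), none of which holds it. In Tsr1 and Nle1 the motif begins 24 and 23 bases past the start, and in Aatf 204 bases before it. The first 3 windows hold 24, 22 and 43 CG dinucleotides, the other 3 hold 2, 2 and 0.
Tsr1: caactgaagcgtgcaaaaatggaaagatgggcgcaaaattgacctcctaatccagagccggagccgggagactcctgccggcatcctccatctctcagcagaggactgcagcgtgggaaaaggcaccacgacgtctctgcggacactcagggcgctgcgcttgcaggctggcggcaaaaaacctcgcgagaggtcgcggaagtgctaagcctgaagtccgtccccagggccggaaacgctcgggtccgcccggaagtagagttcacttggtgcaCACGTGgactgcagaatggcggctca
Nle1: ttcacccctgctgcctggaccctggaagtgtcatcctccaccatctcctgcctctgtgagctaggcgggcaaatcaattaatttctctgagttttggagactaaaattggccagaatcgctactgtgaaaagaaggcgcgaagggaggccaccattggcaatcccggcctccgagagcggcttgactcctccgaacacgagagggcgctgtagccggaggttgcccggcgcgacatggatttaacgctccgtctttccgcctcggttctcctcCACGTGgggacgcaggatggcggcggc
Aatf: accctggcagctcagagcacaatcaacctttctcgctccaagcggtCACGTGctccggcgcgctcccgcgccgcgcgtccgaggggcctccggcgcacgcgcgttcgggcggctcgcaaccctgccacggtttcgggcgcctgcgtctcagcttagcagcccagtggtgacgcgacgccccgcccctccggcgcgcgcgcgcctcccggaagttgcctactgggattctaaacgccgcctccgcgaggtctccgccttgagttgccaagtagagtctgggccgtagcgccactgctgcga
Gzmb: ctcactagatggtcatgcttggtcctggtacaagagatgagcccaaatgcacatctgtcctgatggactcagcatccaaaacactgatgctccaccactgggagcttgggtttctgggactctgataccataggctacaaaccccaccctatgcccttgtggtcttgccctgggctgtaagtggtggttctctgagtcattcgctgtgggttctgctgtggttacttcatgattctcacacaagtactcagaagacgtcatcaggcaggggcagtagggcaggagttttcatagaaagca
Mcpt1: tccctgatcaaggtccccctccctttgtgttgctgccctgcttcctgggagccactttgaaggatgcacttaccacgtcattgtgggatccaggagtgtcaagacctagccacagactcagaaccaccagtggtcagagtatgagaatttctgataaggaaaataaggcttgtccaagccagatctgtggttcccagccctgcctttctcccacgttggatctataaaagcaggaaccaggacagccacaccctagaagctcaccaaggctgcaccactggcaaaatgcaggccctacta
Serpinb10: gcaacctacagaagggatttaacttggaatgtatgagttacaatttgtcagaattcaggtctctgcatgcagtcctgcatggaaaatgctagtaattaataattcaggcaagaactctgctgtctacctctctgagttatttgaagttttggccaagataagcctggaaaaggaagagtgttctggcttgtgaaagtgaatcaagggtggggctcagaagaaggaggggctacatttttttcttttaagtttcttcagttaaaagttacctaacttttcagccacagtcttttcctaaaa

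Translation genes outside ribosome assembly rose less evenly. RNA polymerase III, which makes tRNA and 5S RNA, had 10 of 19 genes higher and 0 lower (median 0.27). Leaving out GFP wt 1 gave 4, and Myc wt 1, Myc wt 3 or GFP wt 3 gave 3 each. Polr3g and Polr3e rose 1.5-fold and 1.47-fold, of which Polr3g lost its call without some 1 array, and Maf1, the repressor of this polymerase, differed by -0.01 (adjusted p = 0.994). RNA polymerase II subunits had 5 of 12 higher (median 0.22; 2 to 3 without each wt array), with Polr2e at 1.33-fold, while Polr2a, its largest subunit, differed by -0.04. Of 46 initiation and elongation factors 15 were higher and 0 lower (29 with the block; 4 leaving out Myc wt 3, 5 for GFP wt 3, 8 for GFP wt 1). They include 4 of the 5 subunits of eIF2B, the exchange factor that recharges eIF2. Eif2b3 read 2521, 2232 and 2702 with Myc and 1465, 1643 and 1375 with GFP (1.66-fold, adjusted p = 0.00459). Dohh, which makes the hypusine residue of eIF5A, rose 1.53-fold, and Eif5a 1.18-fold, both calls lost without some 1 array. Cytosolic tRNA synthetases had 13 of 20 higher (20 with the block; 5 leaving out GFP wt 3, 6 for Myc wt 3, 8 for GFP wt 1). Cytosolic ribosomal proteins had far fewer calls than the factors that assemble them. Only 3 of 55 were higher, Rps21, Rpl36 and Rps18, and 0 lower, with a median of 0.14 that was 0.14, 0.14 and 0.13 in the 3 pairs. With the block 22 were higher, at the same small size, and without Myc wt 3 or without GFP wt 3 the count was 0. Their probe sets were the brightest of these lists, with a median intensity of 6574, and 23 of the 78 genes on the list had no probe set of their own.

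Genes of the mitochondrion were also higher, with larger shares called for its protein synthesis and import than for its respiratory chain, a contrast that was not tested. Mitochondrial tRNA synthetases had 10 of 16 higher and 0 lower (median 0.38; 5 leaving out Myc wt 3, 6 for Myc wt 1 or GFP wt 2). Nars2, for asparagine, read 939, 854 and 945 with Myc and 540, 590 and 542 with GFP, a rise of 1.64-fold with an adjusted p of at most 0.00534 without any 1 array. In the mitochondrial ribosome 29 of 78 genes were higher (55 with the block) and 0 lower, with 17 of 48 in the large subunit and 12 of 30 in the small one. Those 2 counts were lowest without GFP wt 3, at 7 and 3; leaving out Myc wt 1, GFP wt 1, Myc wt 2 or Myc wt 3 gave 9 to 11 and 4 to 6. Import and chaperone genes had 22 of 40 higher and 0 lower (median 0.35; 10 leaving out GFP wt 3, 11 for Myc wt 3, 12 for Myc wt 1 or GFP wt 1). Chchd4, the oxidoreductase of the space between the membranes, rose 1.64-fold, Timm8a1 1.65-fold, both calls lost without some 1 array, and Hspd1, the Hsp60 gene, read 6828, 6847 and 6910 with Myc and 4634, 5232 and 4806 with GFP. Of 18 genes for mitochondrial DNA and its transcription 7 were higher, among them Twnk, the DNA helicase, at 1.68-fold, from 271, 248 and 226 to 427, 384 and 441. By comparison 10 of 58 respiratory chain genes were higher (21 with the block), with a median of 0.15, and 9 of 17 citrate cycle genes (median 0.26). Those 2 counts were 1 and 2 without GFP wt 3, 2 and 4 without Myc wt 3, and 3 and 3 without Myc wt 1; leaving out GFP wt 1 gave 5 for the respiratory chain and leaving out Myc wt 2 gave 4 for the citrate cycle.

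Folate and purine genes rose, with fewer calls among pyrimidine and deoxynucleotide genes. Slc19a1, the reduced folate carrier, read 3390, 3161 and 3725 with Myc and 1826, 1935 and 1815 with GFP, a rise of 1.84-fold (95% interval 1.62 to 2.09, adjusted p = 7.24e-04, at most 0.00639 without any 1 array). Slc25a32, which takes folate into mitochondria, rose 1.66-fold, from 756, 817 and 685 to 1200, 1174 and 1380. Of 17 folate and serine pathway genes 9 were higher and 0 lower (median 0.45), with Shmt2 at 1.48-fold. Purine synthesis had 10 of 17 higher and 0 lower (median 0.46). Adk, which salvages adenosine, rose 1.66-fold and Gart, which serves several steps of the pathway, 1.55-fold. Of 20 pyrimidine and deoxynucleotide genes 6 were higher and 0 lower (2 lower with the block; 3 if GFP wt 2 is left out, 2 for Myc wt 1, Myc wt 3 or GFP wt 3). The rises were in Ctps, Dctpp1, Dhodh, Cad, Nme4 and Umps. The deoxynucleotide genes Tk1 and Rrm2 differed by -0.06 and -0.09 (adjusted p = 0.852 and 0.583).

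Of 23 amino acid transporters 5 were higher (21.7%, against 6.17% of all genes) and 1 lower, and with the block 7 and 4 (2 higher leaving out GFP wt 1, Myc wt 3 or GFP wt 3, 3 for Myc wt 2). Slc6a15, a carrier of branched-chain amino acids, read 180, 328 and 274 with Myc and 58.8, 111 and 66.3 with GFP (3.34-fold, adjusted p = 0.0147; highest 0.0647 without 1 array). Slc7a5, the large carrier of leucine that mTOR signalling relies on, rose 1.41-fold, Slc1a4 1.75-fold, and Slc7a7 fell 1.49-fold; the calls of these 3 were also lost without some 1 array. In glycolysis 6 of 21 genes were higher (28.6%) and 1 lower (11 and 1 with the block; 2 higher leaving out GFP wt 3, 3 for Myc wt 3 or GFP wt 1). Pdk1, which holds pyruvate back from the mitochondrion, read 725, 695 and 1002 with Myc and 387, 455 and 432 with GFP, a rise of 1.88-fold (adjusted p = 0.0109). Of the hexokinases, Hk2 rose 1.27-fold, from 1090, 1146 and 1136 to 1307, 1373 and 1638, a call lost without some 1 array (highest adjusted p 0.106). Hk3, the form of myeloid cells, fell 1.9-fold, from 1588, 1283 and 1781 to 874, 736 and 822 (adjusted p = 0.00912). Of 10 polyamine genes 2 were higher, Dohh and Srm (20%, against 6.17% of all genes), and with the block 4 were higher and 2 lower. The list did not rise as a whole, with a median of -0.01 and 5 differences positive and 5 negative. Odc1, the first enzyme of the pathway and a classical Myc target, read 2033, 2573 and 2148 with Myc and 1244, 1783 and 1309 with GFP (adjusted p = 0.0819; 0.00209 with the block).

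Genes that move, modify and fold the products also rose. Of 51 nuclear pore and transport genes 24 were higher, 0 lower and 51 positive (median 0.27; 10 leaving out GFP wt 3, 11 for Myc wt 3, 15 for Myc wt 1). Ipo4 rose 1.64-fold and Xpot, which exports tRNA, 1.41-fold (highest adjusted p of Xpot 0.0738 without 1 array). A list of protein arginine and RNA methylation genes, which also holds DNA-modifying genes such as Tet1 and Dnmt1, had 19 of 29 higher and 0 lower. Its median was 0.43, Tet1 is among the higher genes, and the count was 12 without Myc wt 1 and 12 without Myc wt 3. Prmt5, which methylates arginines of histones and splicing proteins, read 4181, 3905 and 4406 with Myc and 2740, 2975 and 2816 with GFP (1.46-fold, adjusted p = 0.0019), and its partner Wdr77 rose 1.52-fold. Mettl1, which methylates tRNA at guanine, rose 1.57-fold, from 770, 821 and 792 to 1235, 1244 and 1257. On the same list Tet1 rose while Tet2, its relative in blood cells, differed by -0.28 (adjusted p = 0.0987) and Dnmt1 by 0.08 (adjusted p = 0.532). Cytosolic chaperones had 15 of 33 higher and 0 lower (25 with the block; 8 without GFP wt 3 and 9 without Myc wt 3), led by Ruvbl1, a helicase-like cofactor of Myc, at 1.75-fold. In the proteasome 4 of 43 were higher, which at 9.3% is near the 6.17% of all genes. Apart from Psma8, these 4 were the assembly chaperones Psmg1, Psmg2 and Psmg3, not subunits of the particle. The count was 1 without GFP wt 3 and 2 without Myc wt 1 or Myc wt 3. With the block 16 were higher and 1 lower.

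Among the cell cycle lists, the kinase inhibitors alone had a median far from 0. The mitosis median was -0.03, 0.02 and -0.08 in pairs 1, 2 and 3. Of 32 mitosis genes 0 were higher and 2 lower (6.25%, against 3.11% of all genes), Mki67 and Nusap1 (median -0.06), of which Nusap1 lost its call without some 1 array. Of 44 replication genes 6 were higher (13.6%, against 6.17% of all genes) and 0 lower (median 0.10; 3 if GFP wt 2 is left out, 2 for Myc wt 1, 1 for Myc wt 3 or GFP wt 3). Orc2, of the origin recognition complex, and Pold2, of DNA polymerase delta, rose 1.45-fold and 1.41-fold, and both lost their call without some 1 array. Of 7 genes listed as inhibitors of cyclin-dependent kinases and measured, 4 were lower (57.1%) and 0 higher (median -0.55), and without GFP wt 3 or without Myc wt 3 the count was 2. Cdkn2d, the p19 gene, read 222, 296 and 233 with Myc and 364, 478 and 470 with GFP and was 1.75-fold lower (95% interval 1.41 to 2.17, adjusted p = 0.00707). Cdkn2c, the p18 gene, was 1.67-fold lower (highest adjusted p 0.0527 without 1 array), and Cdkn1b, the p27 gene, fell 1.47-fold, from 1165, 890 and 1068 to 703, 655 and 760 (adjusted p = 0.0461; highest 0.155 without 1 array). A second, dimmer Cdkn1b probe set differed by -0.29. Cdkn3, which is a phosphatase that acts on Cdk2 and not a member of the inhibitor families, was 1.54-fold lower. Cdkn2a and Cdkn2b differed by 0.13 and 0.02, and Cdkn1a was not analysed here.

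Among G1 genes 2 of 18 were higher (11.1%, against 6.17% of all genes) and 3 lower (16.7%, against 3.11%). The list's median was -0.05, with 9 differences positive and 9 negative. Cdk4 rose 1.15-fold, from 7991, 8295 and 7869 to 9483, 9000 and 9396, and Skp2, which marks p27 for destruction, 1.19-fold. Both lost their call without some 1 array (highest adjusted p 0.0953 and 0.146). Ccnd3, the D cyclin of maturing blood cells, read 2488, 2824 and 2465 with Myc and 4068, 4018 and 3870 with GFP and was 1.54-fold lower (adjusted p = 0.00708; at most 0.0373). E2f2 and Cdk2 were 1.45-fold and 1.27-fold lower (highest adjusted p 0.065 and 0.061 without 1 array). In the Bcl2 family of cell death regulators 1 of 14 was lower (7.14%, against 3.11% of all genes) and 0 higher. This was Bcl2 itself, which protects cells, at 1.62-fold, from 1253, 795 and 1125 to 691, 575 and 663 (adjusted p = 0.0274, highest 0.109 without 1 array). With the block 1 was higher, Bid, and 2 lower. Of 26 genes listed with p53 and its targets 1 was higher (3.85%, against 6.17% of all genes), the nuclease gene Aen at 1.33-fold. Lower were 3 (11.5%, against 3.11%), Trp53inp2, Btg2 and Apaf1, the last 2 not called without some 1 array. With the block 6 were higher and 4 lower.

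**Figure D3:**
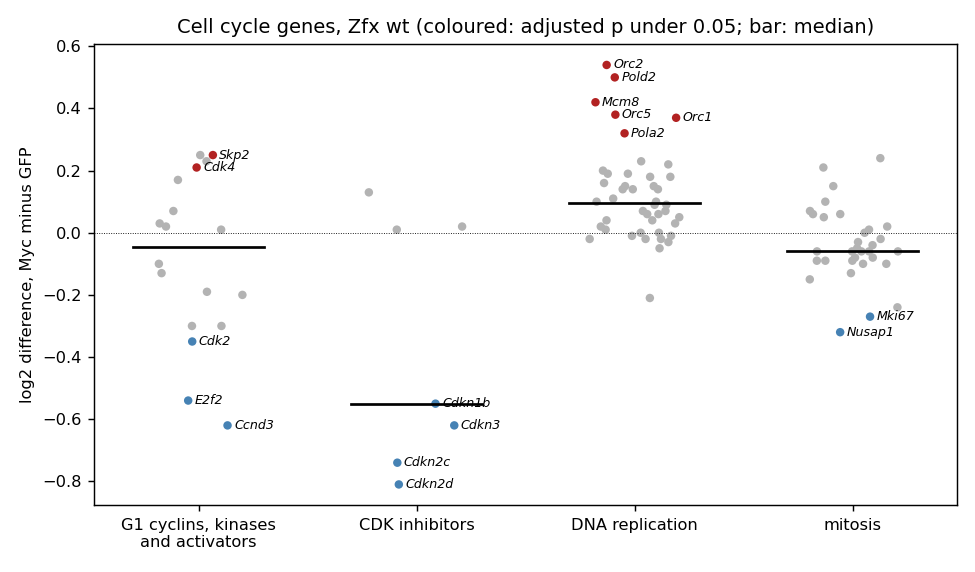
Log2 difference, Myc minus GFP, of each measured cell cycle gene in wt, by list, with called genes coloured and named and a bar at each list's median. The 4 called kinase inhibitor genes lie between -0.81 and -0.55, while replication and mitosis genes gather around 0, with medians of 0.10 and -0.06.

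Neutrophil maturation markers had the lowest median of the lists. Of 23 measured 11 were lower (47.8%, against 3.11% of all genes), 0 were higher and all 23 differences were negative, with a median of -0.85. It was -1.09, -0.46 and -1.03 in pairs 1, 2 and 3. The block gave 21 lower genes, and the count was 5 without GFP wt 3 and 6 without GFP wt 1. Summed over the list, intensity lay between 59130 and 81738 on the Myc arrays and between 119113 and 140666 on the GFP arrays, so the groups did not overlap. Ltf, the lactoferrin gene of secondary granules, read 2115, 2741 and 3489 with Myc and 9447, 6950 and 9156 with GFP (3.1-fold lower, adjusted p = 0.0195; highest 0.0758 without 1 array). Itgam, the CD11b integrin chain, read 1270, 1415 and 1511 with Myc and 3526, 3071 and 3891 with GFP and was 2.49-fold lower (95% interval 2.07 to 3, adjusted p = 7.10e-04, at most 0.00531). Cybb, the NADPH oxidase subunit, was 2.06-fold lower, from 8178, 7844 and 8300 to 4396, 3636 and 3787 (adjusted p = 0.00162, at most 0.0116). Camp, the cathelicidin gene, was 1.81-fold lower and S100a9 1.97-fold, calls lost without some 1 array; on both, Myc wt 1 was the lowest array, at 3005 and 3471. The 5 most negative differences on the list, of Stfa2, Mmp9, Ly6g, Cxcr2 and Retnlg, did not pass the test. Among them is Mmp9, the gelatinase of tertiary granules, which read 187, 160 and 324 with Myc and 1152, 496 and 2017 with GFP (adjusted p = 0.052; 3.55e-04 with the block). Cxcr2, the chemokine receptor that releases neutrophils from the marrow, read 245, 345 and 558 with Myc and 1322, 771 and 2123 with GFP (adjusted p = 0.0778; 0.00368).

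Of 9 primary granule genes, made at the earlier promyelocyte stage, 3 were lower (33.3%, against 3.11% of all genes) and 8 differences were negative. In 5 of the 9 all Myc arrays lay below all GFP arrays, against 9.44% of all genes. The list's median was -0.18. Summed over the list, intensity lay between 64071 and 73723 with Myc and between 77050 and 86403 with GFP, so the groups did not overlap. The most familiar members were not among those called. Elane read 15297, 14988 and 14948 with Myc and 15284, 15176 and 17316 with GFP and Mpo, the myeloperoxidase gene, 13129, 10469 and 12436 with Myc and 13512, 12583 and 14614 with GFP, and neither passed the test (adjusted p = 0.809 and 0.468). The 3 genes that were lower are Lyz2, Hp and Ms4a3, of which Lyz2, the lysozyme gene of monocytes and neutrophils, was 1.85-fold lower (0 of the 3 were called without GFP wt 3 or without Myc wt 3). The part of cell makeup in the rises was not tested. In pair 2, where the neutrophil median was nearest to 0, the ribosome biogenesis median was 0.40, against 0.53 and 0.61 in pairs 1 and 3. Pair 2 also had the smallest medians over all called genes, 0.37 for rises and -0.42 for falls. The neutrophil median was lowest in pair 1 (-1.09, against -1.03 in pair 3), while the ribosome biogenesis median was highest in pair 3.

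Of the genes lower with Myc, 3 granule protease genes made by mast cells had the largest folds. Mcpt2 read 297, 462 and 201 with Myc and 3743, 2182 and 5759 with GFP and was 12-fold lower (95% interval 5.25 to 27.2, adjusted p = 0.00408; highest 0.0232 without 1 array). Mcpt1, a close relative whose probes may share signal with it, read 75.6, 65.8 and 65.9 with Myc and 362, 170 and 640 with GFP. Gzmb, a granzyme also made by mast cells, read 91.5, 523 and 74.8 with Myc and 1053, 1136 and 867 with GFP; Myc wt 2 lay far above the other Myc arrays but below all GFP arrays, and the call was lost without some 1 array (highest adjusted p 0.0673). The chymase genes Mcpt4 and Cma1 and the tryptase genes Tpsab1 and Tpsb2 were 1.9-fold, 1.93-fold, 2.06-fold and 1.64-fold lower, and no wt array read above 263 for any of these 4. Tpsb2 lost its call without some 1 array. Of 24 mast cell and basophil markers 7 were lower (29.2%, against 3.11% of all genes) and 1 higher (4.17%, against 6.17%). The median was -0.56, and with the block 11 were lower. The list was not uniform. Ms4a2, which encodes a signalling chain of the IgE receptor, rose 2.35-fold, with 1187, 1654 and 2533 with Myc and 686, 615 and 906 with GFP (adjusted p = 0.0108), while Fcer1a, the receptor's alpha chain, differed by -0.09 and Mcpt8, a basophil protease, by -0.28 (adjusted p = 0.972 and 0.807). Cpa3, the mast cell carboxypeptidase, read 3106, 6703 and 6837 with Myc and 8158, 6984 and 9142 with GFP, with Myc wt 1 apart from the rest (adjusted p = 0.37).

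The other large falls were in genes of several kinds. Siglece, an inhibitory receptor of neutrophils and monocytes, read 424, 453 and 405 with Myc and 1155, 1230 and 1267 with GFP, 2.85-fold lower and even across arrays (adjusted p = 6.87e-04, at most 0.00494 without any 1 array). Trp53inp2, which promotes autophagy, read 367, 474 and 379 with Myc and 1400, 1304 and 1833 with GFP (3.7-fold, adjusted p = 7.01e-04, at most 0.00534). Ceacam10 read 198, 606 and 380 with Myc and 1411, 1774 and 1857 with GFP and was 4.67-fold lower. Rasgrp4, a Ras activator of mast and myeloid cells, was 3-fold lower, the receptor gene Lilra6 2.98-fold, Pla2g7, which breaks down platelet-activating factor, 2.8-fold, Ipcef1 3.02-fold, Hacd4 3.15-fold and Klrb1f 2.76-fold. Serpinb10, AA467197, Inhba, the activin A subunit, Plbd1 and Cdh17 fell 4.89-fold, 4.02-fold, 3.93-fold, 3.44-fold and 2.77-fold, and all 5 lost their call without some 1 array.

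Of 49 lineage transcription factors, 2 were higher, Klf1 and Tcf4 (4.08%, against 6.17% of all genes), and 3 lower, Id2, Cebpd and Spi1 (6.12%, against 3.11%); with the block 4 were higher and 12 lower. All 5 lost their call without some 1 array, and 0 of the 3 falls were called without Myc wt 3 or without GFP wt 3. Id2, which blocks E proteins, read 1875, 2865 and 1729 with Myc and 4312, 5813 and 4603 with GFP and was 2.32-fold lower (adjusted p = 0.0151; highest 0.0694 without 1 array). Cebpd, which acts late in granulocytes, was 1.66-fold lower, from 410, 415 and 480 to 205, 336 and 260. Spi1, the PU.1 gene of myeloid cells, was 1.3-fold lower, from 6223, 7202 and 7099 to 5300, 5757 and 4716 (adjusted p = 0.0301; highest 0.127). Cebpe, of secondary granules, read 2554, 2847 and 2719 with Myc and 3400, 3181 and 3791 with GFP (adjusted p = 0.0698; 0.0427 with the block), and Cebpa overlapped between groups (adjusted p = 0.861). Klf1, the erythroid factor, rose 1.82-fold at low intensity, 240, 295 and 276 with Myc and 157, 166 and 125 with GFP. It was the 1 erythroid marker of 17 called, and its highest adjusted p without 1 array was 0.168. Gata1 read 317, 496 and 778 with Myc and 218, 332 and 310 with GFP (adjusted p = 0.246; 0.0272 with the block).

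Of 31 cytokine receptor genes and inhibitors 1 was lower (3.23%, near the 3.11% of all genes), Tgfbr2, the receptor of the growth inhibitor TGF-beta, at 1.56-fold, and 0 higher; with the block 12 were lower. Tgfbr2 read 510, 648 and 533 with Myc and 837, 1092 and 736 with GFP, and all Myc arrays lay below all GFP arrays (adjusted p = 0.0359; highest 0.13). Csf3r, the G-CSF receptor, read 1238, 775 and 1170 with Myc and 1920, 1061 and 2735 with GFP (adjusted p = 0.429; 0.00912 with the block). The IL-3 receptor chain Csf2rb differed by -0.01. Of 27 integrin and adhesion genes 4 were lower (14.8%, against 3.11% of all genes) and 0 higher. With the block 10 were lower, and without GFP wt 1 or without GFP wt 3 the count was 2. Itgb2, the beta chain that pairs with Itgam, was 2-fold lower, from 4825, 5629 and 4832 to 2221, 3380 and 2173 (adjusted p = 0.00707, at most 0.0366), and Pecam1 and Selplg were 2-fold and 1.29-fold lower, both without a call when some 1 array was left out. Among 32 chemokines and receptors 2 were lower (6.25%, against 3.11% of all genes), and 11 with the block (1 lower without GFP wt 3). The 2 were Ccr1 at 2.3-fold and Ptafr, the receptor of platelet-activating factor, at 2.11-fold. Ptafr read 513, 662 and 515 with Myc and 1103, 1283 and 1158 with GFP (adjusted p = 0.00326). Of 20 stem and progenitor markers 2 were lower (10%, against 3.11% of all genes), Cd93 and Tie1, and 0 higher. The list's median was -0.07, with 14 differences negative and 6 positive, and with the block 3 were lower. Cd93, a surface receptor of early myeloid cells, was 2.12-fold lower, from 2751, 3047 and 2804 to 1489, 1470 and 1126 (adjusted p = 0.00202, at most 0.0118), whereas Cd34 overlapped between groups (adjusted p = 0.781).

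Monocyte and macrophage markers had 3 of 24 lower (12.5%, against 3.11% of all genes), Fcgr4, Lyz2 and Fcgr3 (6 with the block; 0 leaving out Myc wt 3, 1 for GFP wt 1, Myc wt 2 or GFP wt 3). Csf1r, the receptor that defines monocytes, read 899, 435 and 281 with Myc and 1110, 941 and 455 with GFP (adjusted p = 0.482). Lysosome genes had 1 of 32 lower (3.12%, near the share of all genes), Tfeb, the transcription factor that governs them, at 1.3-fold, and 15 lower and 2 higher with the block; Tfeb lost its call without each of the 6 arrays in turn. In the interferon response 4 of 28 were lower (14.3%, against 3.11% of all genes), Ddx58, Isg20, Zbp1 and Dhx58. Bst2 was the 1 higher (3.57%, against 6.17%). With the block 7 were lower and 1 higher, and without each wt array 1 or 2 were lower. Ddx58, the RIG-I sensor of viral RNA, read 393, 576 and 439 with Myc and 779, 962 and 958 with GFP (1.93-fold lower, adjusted p = 0.00456, at most 0.025). Eosinophil markers (0 of 8) and megakaryocyte markers (0 of 12; 3 lower with the block) had no call, with medians of -0.61 and -0.53. The eosinophil median was -1.11, -0.34 and -0.27 in pairs 1, 2 and 3. Ppbp, a platelet chemokine, read 122, 1483 and 2190 with Myc and 4279, 8188 and 6661 with GFP; all Myc arrays lay below all GFP arrays, with an adjusted p of 0.0586 (0.00697 with the block).

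**Figure D4:**
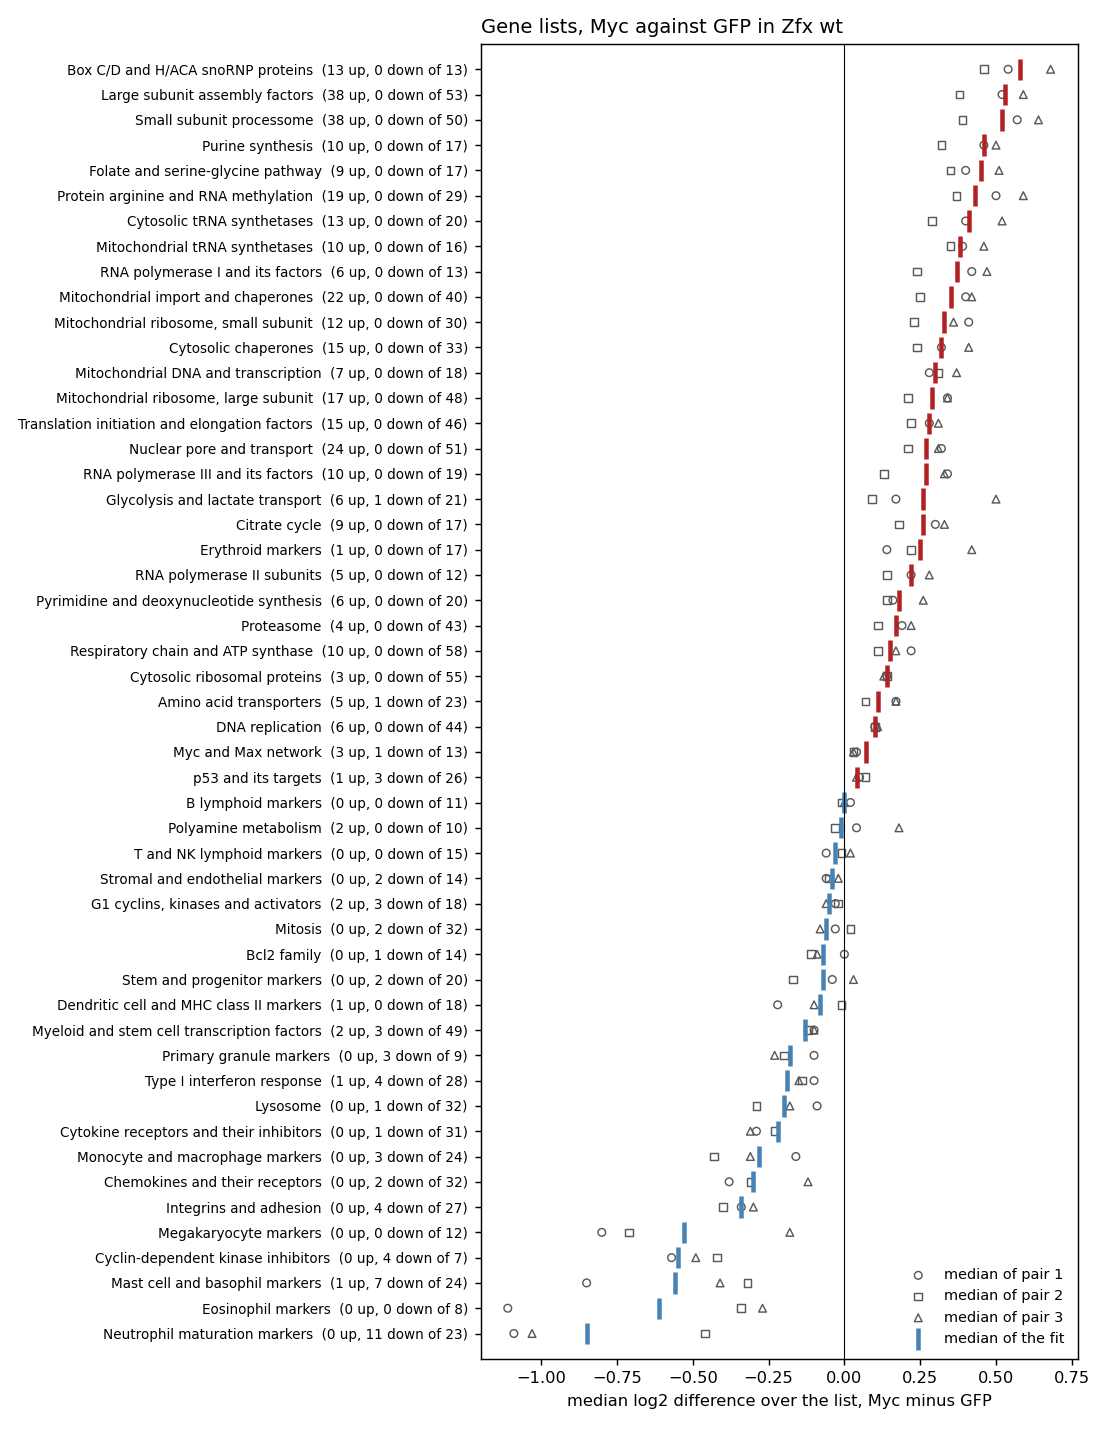
Median log2 difference, Myc minus GFP, over the measured genes of each list, with the fit's median as a bar and the medians of pairs 1, 2 and 3 as open marks; counts of called genes stand beside each name. Ribosome particle lists lie at the top (0.52 to 0.58) and neutrophil maturation at the bottom (-0.85), and the square of pair 2 is the mark nearest to 0 in most lists that rose.

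Pairs differed in size more than in direction. Over the 1231 genes higher with Myc the median log2 difference was 0.48 in pair 1, 0.37 in pair 2 and 0.55 in pair 3, and over the 620 lower genes -0.51, -0.42 and -0.63. Those genes were called from the same arrays, so the order of the pairs is a description. The pairs are not ordered alike in the cell type lists. Neutrophil maturation was lowest in pair 1 and pair 3, mast cell and basophil markers were lowest in pair 1 (-0.85, against -0.32 and -0.41), and monocyte and macrophage markers in pair 2 (-0.43, against -0.16 and -0.31).

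The same virus was compared in cells labelled Zfx ko, which share no array with the wt groups. There 2626 genes were called (13.2%), 1711 higher (8.58%) and 915 lower (4.59%), and 1562 were called in both genotypes in the same direction. That is 84.4% of the wt calls and 59.5% of the ko calls, with 0 called in opposite directions. These shares are not an overlap of independent calls. Both comparisons came from the same fit over all 12 arrays, so each gene's wt and ko tests used the same estimate of spread. Same-numbered arrays of different groups also deviated together (correlations of 0.40 to 0.85). Of the 1851 genes called in wt, 1843 had the same sign in ko, and the median differences of the rises and falls, 0.47 and -0.52 in wt, were 0.47 and -0.52 in ko. The difference between the genotypes was tested itself. Limma's interaction called 0 of 19938 genes, with 343 at an unadjusted p under 0.05 and 1 with the block (0.00502%), Nck2, an adaptor gene that was not called in wt (adjusted p = 0.663). Without Myc wt 1 the interaction called 1 gene, Lgr4, and without Myc ko 1 it called 4, Arpin, Epb42, Lin28b and Pkhd1l1. The 289 genes called in wt and not in ko are not shown to differ between genotypes.

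Among the 5 genes of lowest interaction p, Lgr4, a receptor for R-spondins, read 123, 166 and 149 with Myc and 62.2, 57.8 and 63.1 with GFP in wt and rose 2.38-fold (adjusted p = 6.87e-04), while in ko its means were 47.2 with Myc and 41.3 with GFP (interaction log2 1.06 ± 0.14 SE, adjusted p = 0.312; 0.072 with the block). Ncs1, a calcium sensor gene, rose 1.63-fold in wt, with a log2 difference of -0.05 in ko (interaction adjusted p = 1). Cenpv rose 1.59-fold in wt and 3.23-fold in ko (interaction -1.02 ± 0.17, adjusted p = 0.639). Pkhd1l1 and Cysltr2 differed by 0.22 and -0.13 in wt and by 1.03 and -0.66 in ko (interaction adjusted p = 0.632 and 1). Npy, a neuropeptide gene, was 2.86-fold lower in wt, with 188, 218 and 304 with Myc and 418, 968 and 721 with GFP, and 10.3-fold lower in ko, where its GFP mean was 3103 (interaction adjusted p = 1; 0.124 with the block).

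**Figure D5:**
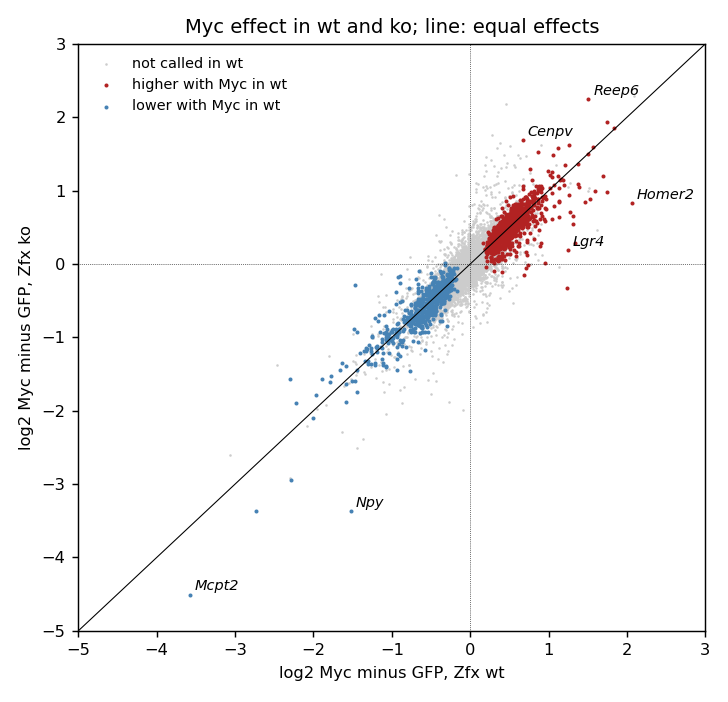
Log2 difference, Myc minus GFP, in Zfx wt on the horizontal axis and in Zfx ko on the vertical axis, for each gene, with genes called in wt coloured and a line at equal effects. Coloured points follow the line, and 1843 of 1851 have the same sign in both; Npy (-1.52 and -3.37) and Lgr4 (1.25 and 0.19) are among the points off it, and the interaction called 0 genes in the fit over all 12 arrays without the block.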

How the data were processed

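RNA of 12 samples was read on gene arrays. The deposited table gives an intensity per probe set and array on a linear scale, which the authors computed with RMA, as the submitters' processing notes name it. RMA corrects background, makes arrays alike by quantiles and combines the probes of a set; its version is not given in the sources used here. Of 35556 probe sets, 21789 have 1 gene symbol, 1621 have more than 1, and 12146 have no entry in the array's gene table. Log2 was taken, and the brightest probe set per symbol kept, giving 19938 genes, with no filter on dim ones. Symbols were updated by identifier for 21698 probe sets.

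Limma 3.58.1 in R 4.3.3 (lmFit, eBayes) fitted a mean per group over all 12 arrays, with 8 residual degrees of freedom, and was tested on simulated data. The design plan did not block on replicate number. Same-numbered arrays of different groups deviated together (correlations of 0.40 to 0.85 in 18 pairs; 0.67, 0.78 and 0.57 in wt), so the numbers were read as pairs and the block is given where it matters. The labels do not say what a number stands for, so p-values measure the spread between arrays. Replicates correlated at 0.9878 to 0.9957 and 0 arrays were identical. With 3 arrays a group, their number limits the precision. Members and lists were chosen with earlier results of these data known.

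Named genes were Myc, Zfx, Max, the top 20 genes in each direction by size among those called without overlap of arrays (predicted genes, small RNA genes and smell receptors left out), up to 6 called members per list and direction, members of short, cell cycle, lineage factor and cytokine receptor lists, and the lowest interaction p. Probe sets of ribosomal proteins can share signal with pseudogenes. Npm1, Ncl, Mmp9, Cxcr2, Ppbp, Odc1, Polr2a, Tet2, Dnmt1, Cpa3, Nck2 and Npy in the ko comparison were named after their values were seen. Alternatives were the block, normalization, variance prior, array weights, the arrays fitted, a filter on dim genes, all probe sets, a 2-fold minimum and leaving out arrays.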

Additional observations from a re-analysis of the deposited data

How the results depend on the processing

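Of 19938 genes, the count called for Myc in wt was 1851 (1231 higher, 620 lower). Blocking on replicate number made it 4082 (2438 and 1644), with the block on the 6 wt arrays alone 3981 (2325 and 1656; chosen after seeing the data, as was leaving out pairs), and with array weights 3209 (2107 and 1102). A 2-fold minimum left 120 (42 and 78). Leaving out 1 array gave 838 to 2044 (563 to 1442 higher, 275 to 646 lower). Leaving out both arrays of a number gave 430 (296 and 134) without pair 1, 1174 (800 and 374) without pair 2 and 90 (63 and 27) without pair 3; these fits have fewer arrays. A second quantile normalization, centring on medians, a trended and robust prior, the 6 wt arrays alone, bright genes alone and all probe sets gave counts within 1.5 times of 1851. The interaction called 0 genes, 1 with the block and 0 to 4 without 1 array. In ko 2626 genes were called, 4959 with the block and 1395 to 2555 without 1 array.

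Of 243 genes named or eligible by the rule, all but Zfx called in the main fit, 0 changed sign with a call in either fit. Called genes had the same sign in all 3 pairs, so leaving out arrays could hardly reverse them. The kept signs are therefore no separate test. Other genes named without a call, such as Elane and Mpo, are not in this count. All 243 kept their call, or for Zfx the lack of one, with the block and with array weights. The number was 211 after centring, 188 with the 6 wt arrays alone, 135 without GFP wt 3 and 25 without pair 3. The median of all genes moved by at most 0.03 (log2) under another normalization, prior or filter. Dim probe sets have no separate detection call here, so low intensities such as those of Mcpt4 cannot be set against a background.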
